A study of Mus musculus with 3 samples.

Results

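The loci of T, Sox17, Gata4, Gata6 and Foxa2, genes that direct the formation of mesoderm and endoderm, were examined for binding of Ring1B and Zrf1 in mouse neural progenitor cells. Each locus was a fixed window of the mm9 genome around the gene, and its members were all deposited peak intervals that overlapped the window. The 5 windows held 19 of the 11790 Ring1B intervals and 1 of the 11647 Zrf1 intervals. The windows were set by position and not by a rule on the peaks in them, but they were chosen with earlier results of these data known. The cells were neural progenitors derived in culture from E14TG2a mouse embryonic stem cells, a single established line, and were grown in N2 medium with EGF and FGF2. Chromatin was crosslinked with formaldehyde and immunoprecipitated with 1 of 2 laboratory-made antibodies, against Ring1B or against Zrf1, or with rabbit IgG as a control, and sequenced (ChIP-seq). Each antibody had 1 library and no treatment or genotype differed between them, so no difference carries a replicate error and no test between samples was possible. The IgG library was not analysed here. The lists hold positions only, so the depth is unknown, neither the labelled cell type nor the activity of the 5 genes could be checked, and a missing interval does not show that a protein was not bound.

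Ring1B, encoded by Rnf2, is the catalytic subunit of Polycomb repressive complex 1, which adds ubiquitin to histone H2A and helps to keep developmental genes silent in lineages that do not use them. Polycomb complexes are known for covering the CpG-rich starts of such genes, often over many kilobases. Zrf1, encoded by Dnajc2, is known to bind ubiquitylated H2A and has been described as displacing Polycomb repressive complex 1 from chromatin during differentiation. T (Brachyury) is a T-box factor of the primitive streak and notochord. Sox17 is an HMG-box factor of the definitive endoderm. Gata4 and Gata6 are related zinc finger factors of the heart and of extraembryonic and gut endoderm. Foxa2 is a forkhead factor of the endoderm, node and notochord that is also used in the floor plate of the neural tube. The question, as the design states it, was how the binding profiles of Ring1B and Zrf1 compare in these cells.

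Sequence near the gene starts was available for 2 of the 5 genes, T and Foxa2, from the RefSeq promoter table for GRCm38.p6. It is shown because CpG-rich sequence is what Polycomb-bound starts are known for. That build is not the build of the peaks, so these promoters were not placed against the intervals. The 250 bases before each annotated start are given 5′ to 3′ along the gene, with every CpG in capitals. They lie at chr17:8434173-8434422 (plus strand) for T, and at chr2:148046970-148047219, chr2:148045949-148046198 and chr2:148045465-148045714 (minus strand) for starts 1, 2 and 3 of Foxa2.
T: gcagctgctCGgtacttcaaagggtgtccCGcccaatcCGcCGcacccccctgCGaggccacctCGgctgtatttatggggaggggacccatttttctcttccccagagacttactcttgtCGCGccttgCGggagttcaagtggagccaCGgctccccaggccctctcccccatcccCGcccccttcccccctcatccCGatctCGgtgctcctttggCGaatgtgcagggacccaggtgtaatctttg
Foxa2 start 1: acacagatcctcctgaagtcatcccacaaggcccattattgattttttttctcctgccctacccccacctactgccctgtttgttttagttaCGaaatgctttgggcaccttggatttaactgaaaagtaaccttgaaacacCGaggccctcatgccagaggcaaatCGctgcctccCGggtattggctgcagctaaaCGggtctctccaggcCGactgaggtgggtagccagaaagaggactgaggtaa
Foxa2 start 2: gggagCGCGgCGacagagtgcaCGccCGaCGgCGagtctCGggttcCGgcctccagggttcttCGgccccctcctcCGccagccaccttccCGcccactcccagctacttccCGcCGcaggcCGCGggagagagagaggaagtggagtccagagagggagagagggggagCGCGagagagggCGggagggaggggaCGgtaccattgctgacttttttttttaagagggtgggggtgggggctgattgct
Foxa2 start 3: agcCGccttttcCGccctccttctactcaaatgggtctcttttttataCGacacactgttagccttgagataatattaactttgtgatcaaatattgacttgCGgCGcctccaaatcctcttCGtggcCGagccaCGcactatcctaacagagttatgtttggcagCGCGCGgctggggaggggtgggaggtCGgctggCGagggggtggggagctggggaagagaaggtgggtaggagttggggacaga
The T promoter held 14 CpG dinucleotides, and 29.4% of the 32851 promoters in the table held at least as many. The motif searched was CG, which reads the same on both strands. The 3 Foxa2 starts held 6, 20 and 13, and 50.4%, 17.9% and 31.5% of promoters held at least as many. The median promoter held 6, so the T promoter and starts 2 and 3 of Foxa2 were above it and start 1 equalled it. The GC content was 62.8% for T and 50.8%, 67.2% and 54.4% for Foxa2, against a median of 52.4%.

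All 5 loci carried Ring1B, and 4 of the 5 carried no Zrf1 interval. Among all autosomal stretches as long as these windows, 27.9% to 33.9% held Ring1B and 29.0% to 35.7% held Zrf1. Most such stretches thus also lacked Zrf1, although it was present in 56.0% to 62.5% of those with Ring1B. With 50 kb more on each side of the windows, Zrf1 was present at T (2 intervals), Gata4 (3) and Foxa2 (1) and lacking at Sox17 and Gata6, and in the central 50% of the windows all 5 lacked it. Ring1B covered 51.3 kb of the 590 kb in the 5 windows (8.69%), against 0.719% of the autosomes. The autosomes include sequence with few genes, whereas each window was set around a developmental gene, so this is not a contrast with other genes. The Foxa2 window held 7 Ring1B intervals, Gata4 6, Gata6 3, Sox17 2 and T 1. In covered sequence, Gata4 led with 20004 bp, followed by Foxa2 with 15.5 kb, Gata6 with 9.53 kb, Sox17 with 4.71 kb and T with 1.48 kb. Gata4, Gata6 and Foxa2 together held 87.9% of it. The windows were 100 to 140 kb long, and the covered share was 15.5% for Foxa2, 15.4% for Gata4, 6.81% for Gata6, 4.28% for Sox17 and 1.35% for T. Foxa2 and Gata4 were thus nearly equal in covered share, while the T window was the least covered. The order of these levels cannot be set against a spread between libraries, and it depended on the extent of the windows. In the central 50% of each window Gata4 kept 1 Ring1B interval of 1107 bp, less than T, while the values of the other 4 loci did not move.

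**Figure D1:**
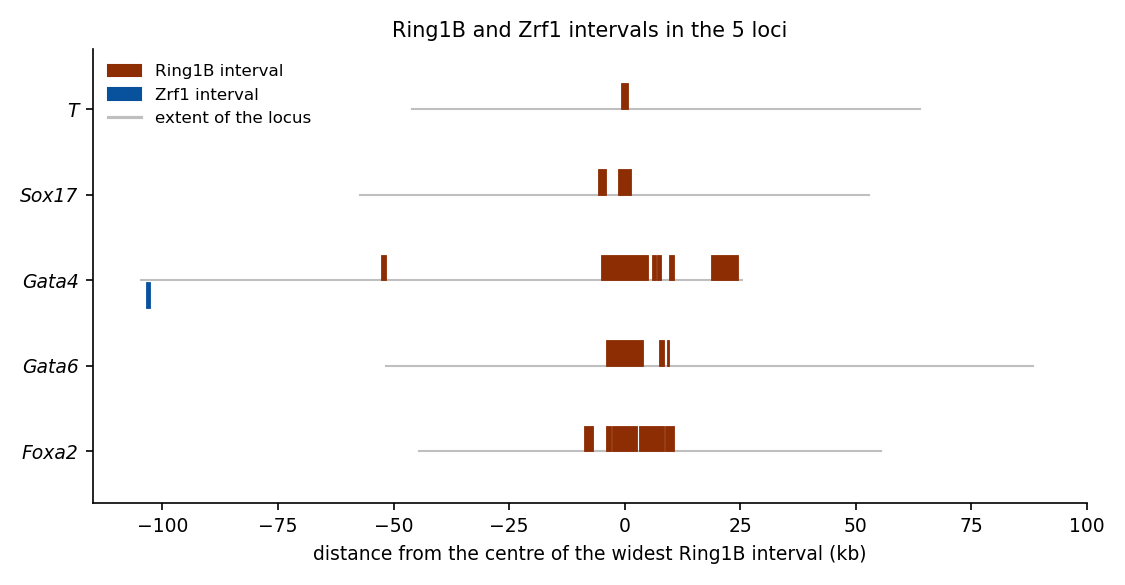
Positions of the Ring1B intervals (brown, above each line) and the Zrf1 interval (blue, below the line) in the 5 loci, as distance in kb from the centre of the widest Ring1B interval of the locus, with the extent of the locus in grey. Foxa2 and Gata4 show long runs of Ring1B, T a single interval, and the only Zrf1 interval lies at the far end of the Gata4 locus.

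T carried the least Ring1B of the 5 windows. With 50 kb more on each side it had 4 intervals (3977 bp), more in number than Sox17 or Gata6 though still fewer bases. Its only Ring1B interval ran from 8625297 to 8626781 on chromosome 17. It measured 1484 bp, against a median of 1324 bp for the list, and 39.4% of Ring1B intervals were at least as wide. The next Ring1B intervals lay 91.4 kb before and 71.8 kb after it, and the nearest Zrf1 intervals 89.3 kb before and 91.0 kb after it. The neighbourhood was not sparse in either list. The 1 Mb around the window held 10 Ring1B and 8 Zrf1 intervals, against means of 5.58 and 6.42 per Mb on chromosome 17.

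The Gata factors carried very broad Ring1B intervals, 2 at Gata4 and 1 at Gata6, with smaller ones beside them. At Gata4, the broadest ran from 63859549 to 63869685 on chromosome 14. Its width of 10136 bp ranked 12 of 11790, and 0.102% of the list was at least as wide. Intervals of 832, 1006 and 931 bp followed it, after gaps of 793, 238 and 1718 bp. A further broad interval, of 5992 bp from 63883221 to 63889213, came 8018 bp later and ranked 78. It ended just inside the window, which closed at 63890000. The remaining Gata4 interval, of 1107 bp from 63811851 to 63812958, stood alone 46591 bp before the broadest one. Ring1B at Gata4 was therefore held mainly by 2 blocks, and the widest interval made up 50.7% of the covered sequence.

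At Gata6, the broad interval ran from 11047624 to 11055599 on chromosome 18. Its 7975 bp ranked 28 in the list, and it held 83.6% of the covered sequence of the locus. Intervals of 944 and 615 bp followed it after gaps of 3535 and 611 bp. The last was among the narrowest of the list, with 98.5% of Ring1B intervals at least as wide. The next Ring1B intervals lay 341 kb before and 449 kb after those of the locus. The 1 Mb around the window held 7 Ring1B intervals with the 3 of the locus, against a mean of 3.6 per Mb on chromosome 18. Zrf1 was farther away here than at any other of the 5 loci by its nearest interval, 286 kb after the last Ring1B interval and 501 kb before the first.

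The endoderm genes Sox17 and Foxa2 differed in how much Ring1B they carried. Sox17 had 2 Ring1B intervals on chromosome 1, of 1793 bp from 4481395 to 4483188 and of 2917 bp from 4485708 to 4488625, separated by 2520 bp. These are the first Ring1B intervals of chromosome 1 in the list, and the next lay 520.0 kb after them. The wider one was in the upper part of the list, with 5.08% of Ring1B intervals at least as wide. The nearest Zrf1 interval was 233 kb before the pair. The 1 Mb around Sox17 held only these 2 Ring1B intervals and 1 Zrf1 interval, both below the means of chromosome 1.

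At Foxa2, all 7 Ring1B intervals lay within 19.4 kb of chromosome 2, from 147855711 to 147875099, and covered 80.2% of that span. The widest measured 5287 bp (147861858 to 147867145), ranked 106, and held 34.0% of the covered sequence, the smallest such share of the 5 loci. The others measured 2014, 1033, 1463, 2693, 1150 and 1909 bp. After the first, the intervals followed each other at gaps of only 309, 465, 113, 103 and 58 bp. Of the 14 gaps between Ring1B intervals within the loci, 6 were at most 500 bp, 5 of them at Foxa2, against a background of 6.69% of the 11770 gaps in the list. The sets are unlike. The 14 leave out the long gaps to the next intervals outside the windows, whereas those of the list run along whole chromosomes. Joined over gaps of at most 1 kb, a rule chosen after the intervals had been seen, Foxa2 held a domain of 14.6 kb of 6 intervals that ranked 14 of 10807 domains. Under the same rule the broad Gata4 block was 13.0 kb long and ranked 26, and the Gata6 block, which joined nothing, ranked 91. Foxa2 thus reached the length of the Gata4 block through closely spaced intervals rather than through 1 broad interval.

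**Figure D2:**
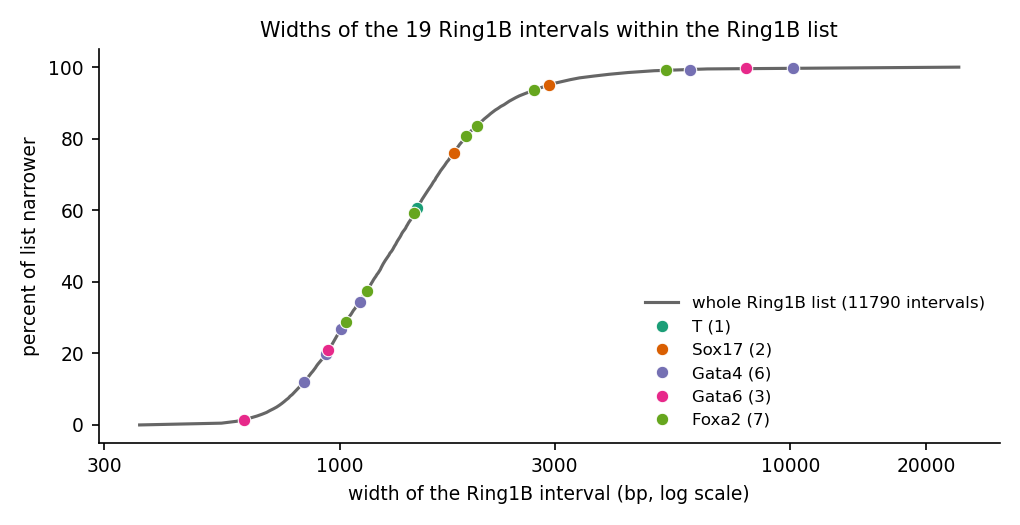
Width in bp (log scale) of each of the 19 Ring1B intervals, coloured by locus, against the percent of the Ring1B list that is narrower; the grey line is the whole list. Points lie along the whole line, with 4 of them beyond 5000 bp.

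Across the loci the median width was close to that of the list, while very wide intervals were more frequent. The 19 intervals ranged from 615 to 10136 bp with a median of 1484 bp, against 1324 bp for the list. Of them, 11 (57.9%) were at least as wide as the list's median, a width that by definition splits the list evenly. Above 5000 bp there were 4 of 19 (21.1%), against 0.992% of the list. These 4 were 2 at Gata4 and 1 each at Gata6 and Foxa2, while T and Sox17 had none. Intervals of 1 locus are not independent of each other, and a caller that splits or joins enrichment sets both their number and their width.

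Most intervals of the loci had close Ring1B neighbours. With clusters defined as runs with gaps of at most 5 kb, 16 of the 19 (84.2%) were in clusters of 2 or more, against 24.4% of the list. In clusters of 5 or more there were 7 (36.8%), all at Foxa2, against 3.66% of the list. Joined over gaps of at most 1 kb, 6 of these 7 formed a domain, so this count depends on where the caller splits enrichment. The other clusters held 4 intervals at Gata4, 3 at Gata6 and 2 at Sox17. The 3 lone intervals were the one at T and the first and last of Gata4.

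Each locus was then set beside all non-overlapping tiles of its own length on the 19 autosomes. Such tiles are placed without regard to genes and include sequence with few genes, so a small share of tiles shows how much Ring1B a locus carried in this library, not that it differed from other genes. Any Ring1B interval was present in 29.5% of the 22465 tiles of 110 kb (T and Sox17), 32.7% of the 130 kb tiles (Gata4), 33.9% of the 140 kb tiles (Gata6) and 27.9% of the 100 kb tiles (Foxa2). By number of intervals, 12.2% of tiles held at least the 2 of Sox17 and 7.75% at least the 3 of Gata6. Only 1.01% held at least the 6 of Gata4 and 0.295% at least the 7 of Foxa2. At least the Ring1B-covered sequence of T was found in 18.2% of tiles, and that of Sox17 in 3.69%. For Gata6 the share was 1.26% of 140 kb tiles, for Foxa2 0.15% of 100 kb tiles and for Gata4 0.0842% of 130 kb tiles, that is 16 of 19010. Among the tiles that held Ring1B, the median was 1.83 kb at the length used for T and Sox17. T with 1.48 kb was below that median. Sox17 lay between the median and the 90th percentile of 5.31 kb, Gata6 between the 90th (6.02 kb) and 99th (14.7 kb) percentiles of its tiles. Gata4 and Foxa2 lay above the 99th percentiles of theirs, 13.9 and 12.8 kb.

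**Figure D3:**
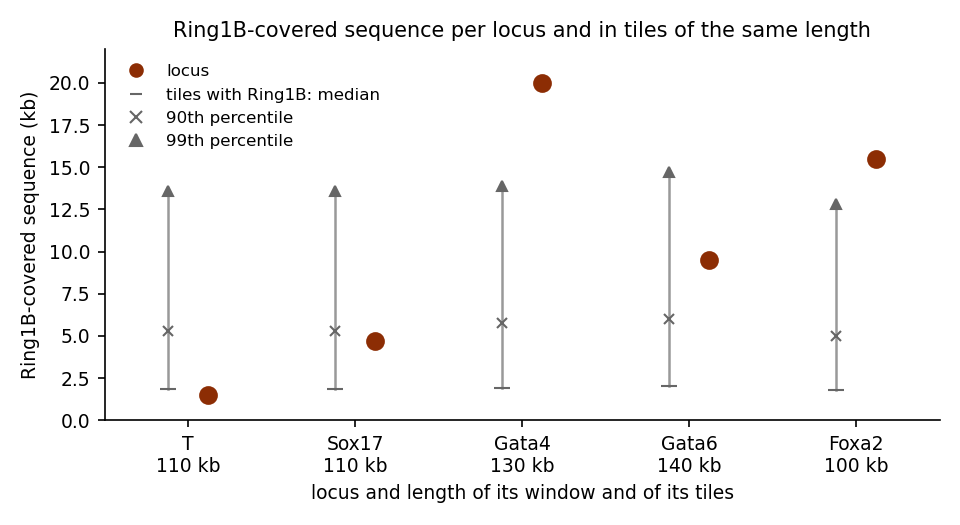
Ring1B-covered sequence in kb at each locus (brown circles) beside autosomal tiles of the same length that hold Ring1B (grey: bar for the median, cross for the 90th and triangle for the 99th percentile). Gata4 with 20004 bp and Foxa2 with 15.5 kb lie above the triangles, and T with 1.48 kb lies below the median.

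Zrf1 did not coincide with Ring1B at any of the 5 loci. Of the 19 Ring1B intervals, 0 overlapped a Zrf1 interval, against 16.6% of the Ring1B list and 16.5% of the Ring1B intervals on the 5 chromosomes concerned. A count of 0 of 19 allows a share of up to 15.8% (3 counts of the total, counting error only). That limit is just below the background, but it treats the 19 intervals as independent. Intervals of a locus are not, so these counts cannot decide whether the share was lower than in the list. Counted by locus, 0 of 5 allows up to 60%. That is a share of windows, for which no background was computed, and it cannot be set against the shares of intervals. The share of intervals that overlapped Zrf1 was 11.1% among all Ring1B intervals over 5000 bp and 13.8% among those in clusters of 2 or more. Gata4, Gata6 and Foxa2 carried both kinds, and Sox17 only the clustered kind.

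The only Zrf1 interval in the windows was at Gata4, from 63761058 to 63761862 on chromosome 14. Its width of 804 bp was close to the Zrf1 median of 796 bp. It lay 49989 bp before the lone first Ring1B interval of the locus, near the start of the window. It did not overlap Ring1B, and 17.0% of the Zrf1 list did. A Zrf1 interval was present in 31.0% of the tiles as long as the T and Sox17 windows, 34.4% for Gata4, 35.7% for Gata6 and 29.0% for Foxa2. Where a tile also held Ring1B, the shares were 58.3%, 61.7%, 62.5% and 56.0%. Among tiles with at least as much Ring1B as the locus itself, Zrf1 was present in 64.1% for T, 75.6% for Sox17, 75.2% for Gata6 and 59.5% for Foxa2, the 4 loci whose windows held none. For Gata4, which held 1, 8 of 16 tiles did. Tiles rich in Ring1B thus often held Zrf1, while 1 of these 5 windows did (3 when widened by 50 kb on each side). With 5 windows this is a count only, and it was not tested.

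The 19 Ring1B intervals lay 45.7 to 291 kb from the nearest Zrf1 interval, with a median of 76.2 kb. The list had a median of 28.7 kb and quartiles of 5.18 and 85.6 kb. Within 50 kb of Zrf1 there were 2 of the 19 (10.5%), both at Gata4, against 62.6% of the list. Within 100 kb there were 14 of the 19 (73.7%), against 78.1% of the list. Gata4 intervals lay 45.7 to 65.2 kb away, and Foxa2 intervals 64.3 to 81.8 kb. The T interval at 89.3 kb, the Sox17 pair at 233 and 237 kb and the Gata6 intervals at 286 to 291 kb were beyond the third quartile of the list. Intervals of a locus lie close together and so share their nearest Zrf1 intervals. The number of Zrf1 intervals in the surrounding 1 Mb was 1 at Gata6, 1 at Sox17, 2 at Foxa2, 5 at Gata4 and 8 at T. It was above the chromosome's mean at T (6.42 per Mb) and Gata4 (2.94), and below it at Gata6 (3.93), Sox17 and Foxa2 (4.97). The Ring1B counts in the same 1 Mb were 7, 2, 10, 11 and 10.

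**Figure D4:**
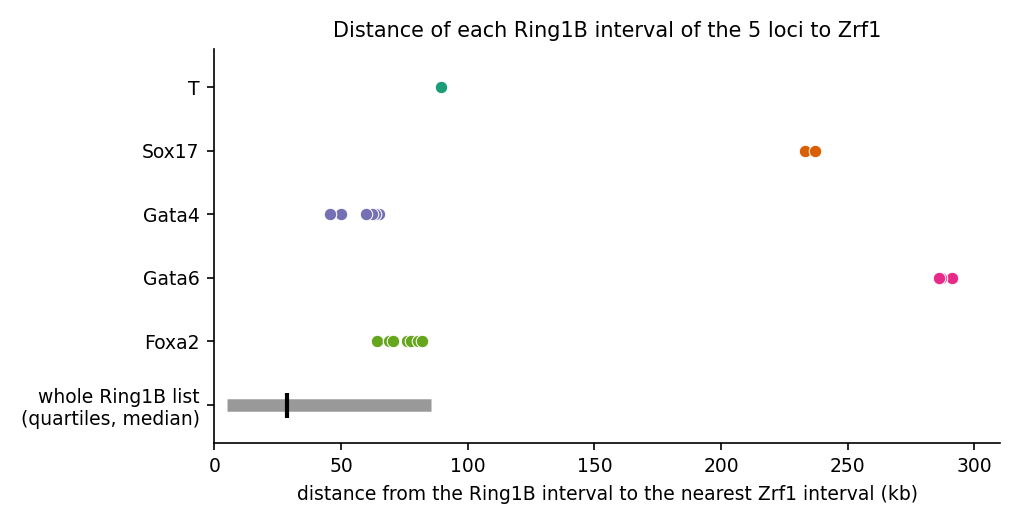
Distance in kb from each of the 19 Ring1B intervals to the nearest Zrf1 interval, by locus, with the quartiles (grey bar) and median (black mark) of the whole Ring1B list. All points lie at 45.7 kb or more, and Sox17 and Gata6 lie at 233 kb or more.

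What lies beside these genes is known here by name only. In GRCm38.p6 the nearest protein-coding genes are LOC115486424, which overlaps T, and Pde10a for T, Rp1 and Mrpl15 for Sox17, Neil2 and Blk for Gata4, Mib1 and Rbbp8 for Gata6, and Pax1 and Sstr4 for Foxa2. Gata6 is also overlapped by the non-coding gene Gata6os, and the intervals, which carry no strand, cannot tell the 2 apart. Which interval covers a start, an exon or an intron was not analysed here.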

How the data were processed

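The authors deposited 1 peak list for Ring1B and 1 for Zrf1, each with 3 columns and no header: chromosome, start and end, in bp, with no score, height or p-value. Bowtie 0.12.7, MACS 1.4.2 and build mm9 are named, per the submitters' processing notes; no source states the threshold, the control or later filters. Lists were matched to libraries by the antibody target. Width is end minus start. Positions are as deposited, and whether starts count from 0 or 1 is not given. Members, windows and lists were chosen with earlier results of these data known. All 5 loci and all their intervals are named. A planned count over other mesoderm and endoderm genes was not run, because the annotation at hand is for GRCm38.p6. Sharing means an overlap of at least 1 bp, which gave the same count with bedtools 2.31.1. Tiles used the mm9 chromosome lengths in GenomeInfoDb 1.38.1. The interval code was tested on simulated data. Python 3.11.15, NumPy 2.4.6 and pandas 2.3.3 were used. Promoters came from RefSeq, without the 50 bases after each start.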

Additional observations from a re-analysis of the deposited data

How the results depend on the processing

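Of 57 recalculations, 37 stayed within 1.5 times the value reported (for shares of tiles, within the exact 95% binomial interval) and 20 did not. Some outcomes were fixed beforehand, so the tally does not measure robustness. The central part of a window without Zrf1 can hold none, and shares can only rise when tiles without Ring1B are left out. Ring1B was present at all 5 loci in the central 50% of the windows. The widened windows contain the original ones, so there it could not be lost. With each window reduced to its central 50%, Gata4 fell to 1 Ring1B interval (1107 bp) and 0 Zrf1 intervals (0 bp), since its broad blocks lie near the end of the window. With 50 kb more on each side, T had 4 Ring1B (3977 bp) and 2 Zrf1 intervals (1934 bp), Gata4 3 Zrf1 intervals (2823 bp) and Foxa2 1 (655 bp). No Ring1B interval of the loci met Zrf1 at 50% coverage, at reciprocal 50% or within 1 kb, against 13.5%, 13.0% and 18.5% of the list. These settings could give nothing else, because no interval overlapped Zrf1 by 1 bp and the nearest lay 45.7 kb away. They therefore add no support. Intervals in clusters of 5 or more were 12 with gaps up to 10 kb (5.67% of the list), where the later Gata4 intervals formed such a cluster too, and 6 with gaps up to 2 kb (1.76%). There were 11 Ring1B intervals of at least the median width, and 11 when joined over gaps of at most 1 kb, the alternative chosen after seeing the data. When only tiles that held Ring1B were counted, with or without Zrf1, fewer tiles entered. The share with at least as much Ring1B was then 61.8% for T, 12.5% for Sox17, 0.257% for Gata4, 3.71% for Gata6 and 0.537% for Foxa2. No paired analysis was possible because each antibody had 1 library. Depth is unknown, and width is not a measure of strength.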
